A study of Mus musculus with 3 samples.

Results

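The genes described are 6 Kruppel-like factors (Klf2, Klf3, Klf4, Klf6, Klf10 and Klf13) and 3 inhibitors of DNA binding (Id1, Id2 and Id3), 9 of the 54752 genes in the count tables, 26962 of which had at least 1 UMI in the cells kept. They were chosen by name with earlier results of these data known, so their levels and ratios are a description and carry no test. Single-cell RNA-Seq was done on CD45+F4/80+7AAD- cells sorted from the infarct zone and border zone of C57BL/6 mouse hearts, with 1 library for each of 3 groups. Hearts of P10-sham_vehicle had sham surgery and vehicle. Those of P10-MI_vehicle had ligation of the left anterior descending artery (myocardial infarction, MI) and vehicle, and those of P10-MI_SB225002 had MI and daily intraperitoneal SB225002, which blocks CXCR2, a receptor for neutrophil-attracting chemokines. The libraries are called sham, MI and SB225002 from here on, in that order where values follow each other. Surgery was at P10 and hearts were taken at P13, 3 days later. All groups shared the wild-type strain, the warm collagenase II digestion, buffers containing sodium butyrate (an inhibitor of histone deacetylases) and the sort, and hearts were pooled by zone within a group, so that animals could not be told apart.

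Kruppel-like factors bind GC-rich and CACCC-type boxes through zinc fingers at their C terminus. Klf2 and Klf4 are known in endothelium as genes switched on by laminar flow through the kinase ERK5 and the MEF2 factors, and in monocytes and macrophages as brakes on inflammatory gene expression. Id proteins carry a helix-loop-helix domain without the basic region that contacts DNA, and hold the E proteins Tcf3, Tcf4 and Tcf12 off their sites. Id1 and Id3 are standard targets of BMP signalling through SMAD1 and SMAD5. Several Kruppel-like factors belong to the immediate-early genes, which enzymatic digestion of tissue is known to induce.

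In GRCm38 (GENCODE vM21), Klf2 lies at chr8:72319033-72321656 on the plus strand, Klf4 at chr4:55527143-55532466 on the minus strand, Klf6 at chr13:5861482-5870394 on the plus strand, Klf10 at chr15:38291463-38300706 on the minus strand, Klf3 at chr5:64803388-64832901 on the plus strand and Klf13 at chr7:63886351-63938915 on the minus strand. Id1 lies at chr2:152736251-152737410 on the plus strand, Id2 at chr12:25093799-25097140 on the minus strand and Id3 at chr4:136143497-136145755 on the plus strand, so that Id3 and Klf4 share a chromosome. All 9 are protein-coding. Klf3 overlaps C230096K16Rik on the same strand and Gm20033 on the opposite strand, which held 716 and 151 UMIs in the tables, and reads of the overlap may be split between them.

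The promoters of Klf2 and Klf4 are shown because both genes were lower with SB225002 in macrophages and Ly6c+ monocytes, and that of Klf6 because it shares an E-box with Klf4 while its ratios were small. RefSeq promoters were matched for 7 of the 9 genes (Klf10 and Id1 had no entry). In the 250 bases before the RefSeq start, on both strands, the MEF2 letters (CTA, any 4 bases, then TAG) were in 3.2% of 32851 promoters and, among the 7, in Klf2 alone, 118 bases before the start. The E-box CACGTG was in 6.02% of all promoters and in those of Klf4 and Klf6, 182 and 43 bases before the start. The GC box GGGCGG, a letter string that Kruppel-like and SP factors can bind, was in 32.7% of all promoters and in all 7 of these, while the AP-1 letters TGANTCA were in 6.75% of all and in none of the 7. The KLF box CCACCC (28.1% of all) was in Klf2, Klf3, Klf13, Id2 and Id3, and the TATA letters TATAAG (6.65%) in Klf2, Klf4 and Id3. The SMAD1/5 letters GGCGCC (9.59% of all) were in Id2 and the CRE letters TGACGT (6.47%) in Klf13. The stretches run 5' to 3' on the gene's strand in GRCm38.p6, at chr8:72318812-72319032 for Klf2, chr4:55532476-55532725 for Klf4 and chr13:5861239-5861481 for Klf6, and capitals mark the MEF2 letters in Klf2 and the E-box in Klf4 and Klf6:
Klf2: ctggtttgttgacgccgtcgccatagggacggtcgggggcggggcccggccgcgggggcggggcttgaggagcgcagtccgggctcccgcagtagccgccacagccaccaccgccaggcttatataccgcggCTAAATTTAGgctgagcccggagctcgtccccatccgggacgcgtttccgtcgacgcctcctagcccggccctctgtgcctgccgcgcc
Klf4: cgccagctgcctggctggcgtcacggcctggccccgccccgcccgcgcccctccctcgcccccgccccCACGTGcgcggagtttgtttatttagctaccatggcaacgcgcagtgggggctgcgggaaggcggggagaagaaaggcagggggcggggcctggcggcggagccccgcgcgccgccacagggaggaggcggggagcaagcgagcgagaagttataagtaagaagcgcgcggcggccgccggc
Klf6: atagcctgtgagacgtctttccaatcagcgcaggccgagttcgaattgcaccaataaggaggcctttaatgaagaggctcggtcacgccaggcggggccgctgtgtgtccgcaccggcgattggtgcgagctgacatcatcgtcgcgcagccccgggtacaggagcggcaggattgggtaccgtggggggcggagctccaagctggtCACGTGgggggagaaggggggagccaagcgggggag

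Cells with 500 to 30000 UMIs, 500 to 5000 genes and under 10% of mitochondrial UMIs were kept, which left 2352, 3454 and 4744 cells (10550 in all) with median UMIs of 8520, 6400 and 5654 and median mitochondrial shares of 5.03%, 4.36% and 3.45%. Any 2 libraries shared 1260 to 1844 barcodes, and 44.3% to 57.9% of the kept cells sharing a barcode fell in the same gate, against 43.9% to 58.4% when the same cells were paired in another order. Types were gated on markers that hold none of the 9 genes. The gates gave 2023, 2295 and 2921 macrophages, 15, 236 and 311 Ly6c+ monocytes, 38, 63 and 188 endothelial cells and 76, 198 and 150 fibroblasts, together with smaller types, and groups of under 20 cells were not compared. The labels call the sorted cells macrophages or monocytes, and the macrophage gate held 86.0%, 66.4% and 61.6% of kept cells. Endothelial cells and fibroblasts are outside the sort gate: Ptprc (CD45) stood at 9.09 to 37.9 CPM in endothelial cells and 5.33 to 12.6 CPM in fibroblasts against 265 to 307 CPM in macrophages, while all 10 endothelial and all 10 fibroblast markers were detected in their types. In a summed level, fewer cells that express a gene and less RNA of it per cell cannot be told apart.

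A level is the number of UMIs of a gene per 1000000 UMIs summed over the cells of a type (CPM), and a ratio is the log2 of the CPM of 2 libraries. Each has an exact 95% interval that covers counting error only. With 1 library per group there is no spread between replicates and no p-value, and a gene is said to be past the fold where its log2 ratio is at least 0.5 in size.

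Id1 and Id3 were highest in endothelial cells, with Id3 also high in fibroblasts, and both stood between 7.98 and 10.3 CPM in the macrophages that make up most of each library. The Kruppel-like factors and Id2 were counted in every myeloid type compared. The order of types below uses the mean of the MI and SB225002 libraries.

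Id1 stood at 678, 560 and 563 CPM in endothelial cells. The next type was the neutrophil, at 195 and 210 CPM in the MI and SB225002 libraries, and the intervals of the 2 types were apart in both libraries. Macrophages held 7.98, 8.85 and 10.3 CPM of Id1. Macrophages also held 11.9, 14.4 and 21.4 CPM of endothelial marker RNA, which at the endothelial ratio of Id1 to those markers would bring 1.07, 1.05 and 1.70 CPM of Id1. With each cell thinned to 1000 UMIs, 0.803%, 0.402% and 1.06% of macrophages had an Id1 UMI (5.29%, 4.62% and 5.0% unthinned, at medians of 8668, 6274 and 5575 UMIs), against 42.1%, 45.6% and 34.1% of endothelial cells. In B cells, a type not known for Id1, 0%, 3.57% and 0% of cells had an unthinned UMI, at medians of 6631.5, 3674.5 and 1975.5 UMIs. These B cell shares rest on at most 2 UMIs a library, and whether the low Id1 level of macrophages is expression or RNA from other cells was not tested.

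Id3 stood at 1191, 806 and 830 CPM in endothelial cells and at 312, 473 and 774 CPM in fibroblasts. These types were not apart in both the MI and the SB225002 library, but fibroblasts were apart from B cells, the next type, at 64.1 and 79.2 CPM. In macrophages Id3 was at 8.20, 8.67 and 8.71 CPM, of which endothelial RNA would bring 1.88, 1.51 and 2.50 CPM and fibroblast RNA 0.225, 0.508 and 0.793 CPM. Endothelial cells were 1.62%, 1.82% and 3.96% of kept cells and fibroblasts 3.23%, 5.73% and 3.16%, yet endothelial cells held 33.8%, 16.4% and 31.6% of all Id3 UMIs and fibroblasts 22.3%, 49.0% and 42.3%. The whole-library level of Id3 was 35.8, 49.7 and 65.5 CPM while its macrophage intervals overlapped in all 3 (6.95 to 9.60, 7.30 to 10.2 and 7.41 to 10.2 CPM). For Id1, endothelial cells held 24.8%, 11.3% and 28.4% of the UMIs and Ly6c+ monocytes 6.83%, 27.4% and 12.9%.

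Id2, which is needed for several lymphoid and dendritic lineages, had another order. Its highest level was in the C1q-low cells with Gpnmb and Spp1 markers, at 692 and 399 CPM in the MI and SB225002 libraries, apart from the Ly6c+ monocytes at 493 and 249 CPM. Macrophages stood at 251, 253 and 202 CPM and B cells at 67.9 and 89.1 CPM in the MI and SB225002 libraries.

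All 6 Kruppel-like factors were highest in Ly6c-low monocytes, the patrolling monocytes for which Klf4 is known to be needed, in that mean. The MI and SB225002 libraries held 29 and 34 of these cells, and for all but Klf13 the interval overlapped that of the next type in at least 1 library. Klf13 stood at 634 and 766 CPM there, above 398 and 271 CPM in Ly6c+ monocytes. Klf2 stood at 1024 and 861 CPM, then at 686 and 634 CPM in B cells and 431 and 533 CPM in neutrophils. Klf4 stood at 744 and 351 CPM, then at 432 and 226 CPM in endothelial cells and 252 and 113 CPM in fibroblasts. At the low end, Klf4 was at 34.4 and 11.9 CPM in neutrophils.

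**Figure D1:**
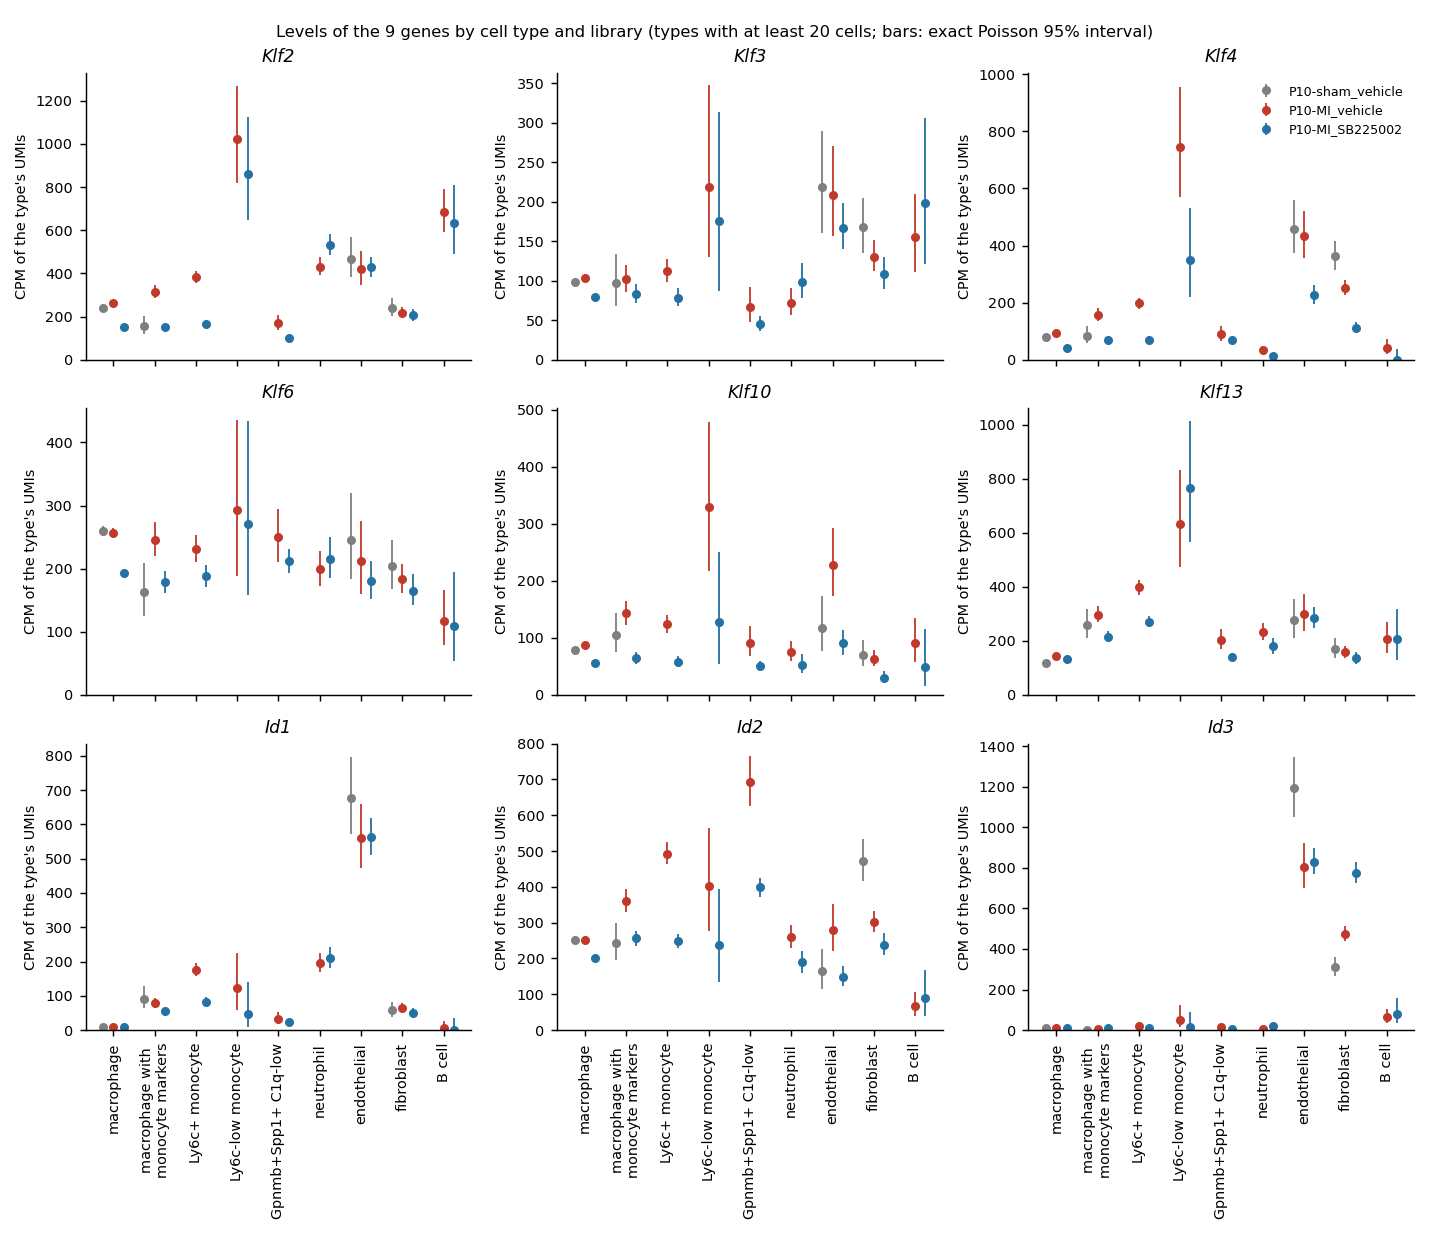
Level (CPM of the UMIs of a type, linear axes from 0) of each of the 9 genes in cell types with at least 20 cells, for sham (grey), MI (red) and SB225002 (blue), with exact Poisson 95% intervals. Id1 and Id3 are near 0 in macrophages and high in endothelial cells (560 to 678 and 806 to 1191 CPM), and the SB225002 point of Klf4 lies under the MI point in each type shown.

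**Figure D2:**
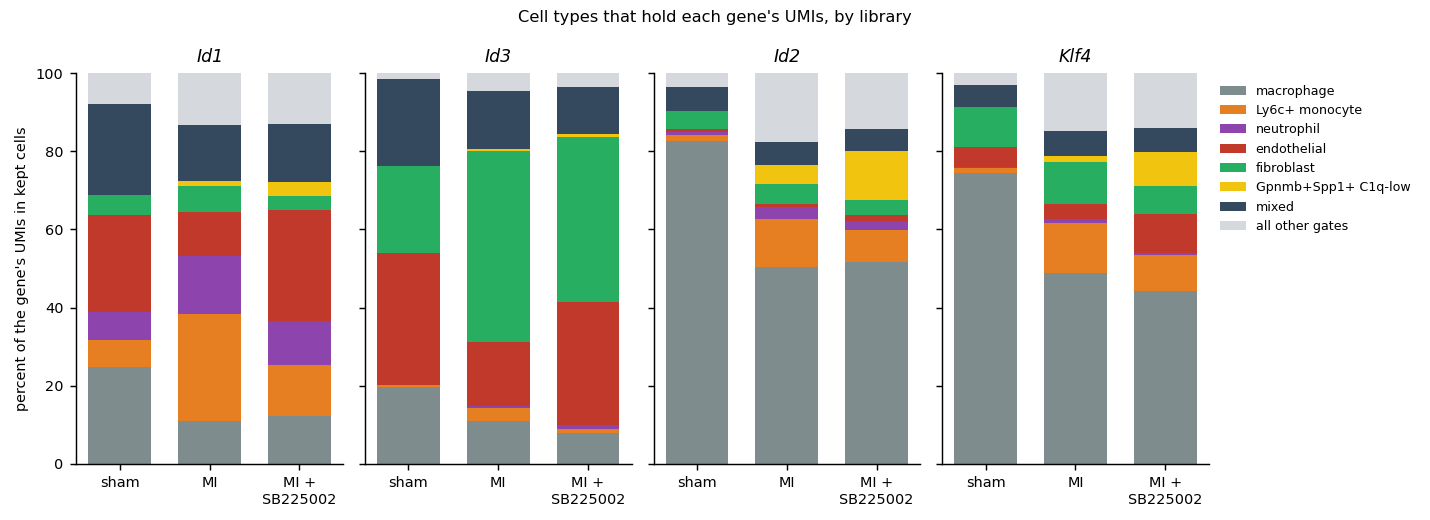
Share (percent) of the UMIs of Id1, Id3, Id2 and Klf4 in kept cells that came from each gated type, by library. Endothelial cells hold 33.8%, 16.4% and 31.6% and fibroblasts 22.3%, 49.0% and 42.3% of Id3 UMIs, while macrophages hold 82.6%, 50.4% and 51.6% of Id2 UMIs.

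The comparison of the SB225002 library with the MI library asks how cells after MI differ with the CXCR2 antagonist. Klf4 and Klf10 were past the fold lower in macrophages, Ly6c+ monocytes, Ly6c-low monocytes, endothelial cells and fibroblasts. Klf2 was past it in macrophages and Ly6c+ monocytes and within it in endothelial cells, fibroblasts, Ly6c-low monocytes, neutrophils and B cells. Klf2, Klf4 and Klf10 were all past it in macrophages with monocyte markers. In the C1q-low Gpnmb+Spp1+ cells Klf2 and Klf10 were past it (-0.78 and -0.87) and Klf4 within it (-0.40, -0.87 to 0.09). In macrophages 3 of the 9 genes were lower past the fold and 0 higher, against 6.80% and 5.26% of the 10868 genes with at least 100 UMIs, and the median log2 ratio was -0.39 for the 9 genes and -0.03 for all genes. In Ly6c+ monocytes 8 of the 9 were lower and 0 higher, against 10.4% and 10.7% of 5686 genes, with medians of -1.08 and 0.03. Of the 8, Id3, at 21.2 and 9.98 CPM, was below the 100 UMIs of the genes tested. It reversed to 0.44 on cells thinned to 1000 UMIs, which leaves few Id3 UMIs. The Ly6c+ monocytes of the 2 libraries also differed in their markers: per 10000 UMIs, the median sum of monocyte markers was 57.4 and 49.6, of macrophage markers 5.93 and 9.97, of Gpnmb+Spp1+ markers 2.87 and 9.79 and of Arg1+ markers 0 and 3.02. The part of this in the ratios was not tested. In endothelial cells 3 were lower and 0 higher (9.28% and 14.5% of 2015 genes), and in fibroblasts 2 were lower and 1 higher (11.3% and 6.83% of 4159 genes). With the mean of log-normalized values per cell in place of summed counts, 0 of the 9 were past the fold in macrophages, 4 in Ly6c+ monocytes and 1 in fibroblasts (Id3). That measure is a difference of means of log2(1 + UMIs per 10000) and not a log2 ratio. It is pulled toward 0 for genes of low level, so the same fold is stricter on it. These lower counts thus cannot decide whether the ratios hold.

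Klf4 stood at 78.9, 93.9 and 42.7 CPM in macrophages, so the SB225002 library was the lowest of the 3. Its log2 ratio was -1.14 (95% interval -1.26 to -1.01). The share of macrophages with a Klf4 UMI at 1000 UMIs per cell was 7.53%, 8.97% and 3.77% (36.2%, 33.6% and 18.6% unthinned), against 0%, 3.64% and 0% of B cells (5.56%, 10.7% and 0% unthinned). The thinned SB225002 share is near the highest B cell share, which rests on 2 of 55 cells. In Ly6c+ monocytes Klf4 was at 198 and 69.0 CPM in the MI and SB225002 libraries (-1.52, -1.79 to -1.26), the largest log2 ratio in size among the 9 genes there. In endothelial cells it was 432 and 226 CPM (-0.94, -1.28 to -0.58) and in fibroblasts 252 and 113 CPM (-1.16, -1.47 to -0.86).

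Klf10, the TGF-beta-inducible early gene, was lower in the same types. Macrophages held 79.0, 87.8 and 55.3 CPM, and the log2 ratio of SB225002 over MI was -0.67 (-0.79 to -0.55). Ly6c+ monocytes held 124 and 58.6 CPM (-1.08, -1.39 to -0.78). Endothelial cells held 118, 227 and 90.5 CPM in the 3 libraries, so that the MI library was high and the intervals of the other 2 overlapped, with a log2 ratio of -1.33 (-1.84 to -0.81). Fibroblasts held 70.3, 63.3 and 29.3 CPM (-1.11, -1.73 to -0.51).

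Klf2 stood at 238, 262 and 151 CPM in macrophages, with a log2 ratio of -0.79 (-0.86 to -0.72), and at 383 and 164 CPM in Ly6c+ monocytes (-1.23, -1.40 to -1.05). In endothelial cells its levels were 468, 420 and 428 CPM and in fibroblasts 241, 219 and 206 CPM. The endothelial log2 ratio was 0.03 (-0.29 to 0.35) and the fibroblast ratio -0.09 (-0.34 to 0.17). These intervals leave out the macrophage value, but with 1 library per group the difference between types was not tested. It also moved with the processing: on cells thinned to 1000 UMIs the endothelial ratio of Klf2 was -0.56 and the fibroblast ratio 0.26. The thinned endothelial cells were 57 and 182 in the MI and SB225002 libraries. Thinned ratios rest on fewer UMIs than the main ones and are given without an interval. With mean log-normalized values, a measure pulled toward 0 at low levels, the macrophage difference of Klf2 was -0.40. Neutrophils held Klf2 at 431 and 533 CPM (0.30, 0.11 to 0.50), where the median of all genes was 0.18.

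The other 3 Kruppel-like factors showed smaller ratios. Klf6, an early-response factor of stimulated macrophages, stood at 260, 257 and 194 CPM in macrophages (-0.41, -0.47 to -0.34) and at 231 and 188 CPM in Ly6c+ monocytes (-0.30, -0.49 to -0.11), the only one of the 9 not past the fold in those monocytes. Klf3, a repressor that works through CtBP, stood at 99.0, 103 and 78.9 CPM in macrophages (-0.39, -0.49 to -0.29) and at 112 and 78.6 CPM in Ly6c+ monocytes (-0.51, -0.80 to -0.23). Klf13, known from T cells, stood at 119, 144 and 133 CPM in macrophages (-0.11, -0.19 to -0.02) and at 398 and 271 CPM in Ly6c+ monocytes (-0.56, -0.71 to -0.41). In endothelial cells and fibroblasts none of these 3 was past the fold, with ratios from -0.32 to -0.07.

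Among the Id genes, Id2 was lower in macrophages (253 and 202 CPM, -0.33, -0.39 to -0.26) and more so in Ly6c+ monocytes (493 and 249 CPM, -0.99, -1.14 to -0.84), in the C1q-low Gpnmb+Spp1+ cells (-0.79, -0.97 to -0.62) and in endothelial cells (280 and 149 CPM, -0.91, -1.34 to -0.47). Id1 was at 176 and 83.1 CPM in Ly6c+ monocytes (-1.09, -1.34 to -0.83) and at 560 and 563 CPM in endothelial cells (0.01, -0.26 to 0.29). Id3 was at 806 and 830 CPM in endothelial cells (0.04, -0.18 to 0.27) and higher with SB225002 in fibroblasts (473 and 774 CPM, 0.71, 0.56 to 0.86). Fibroblasts of the sham library were lowest at 312 CPM, and the intervals of the 3 libraries did not overlap. The share of fibroblasts with an Id3 UMI at 1000 UMIs per cell was 21.3%, 29.8% and 34.0%, with overlapping intervals.

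**Figure D3:**
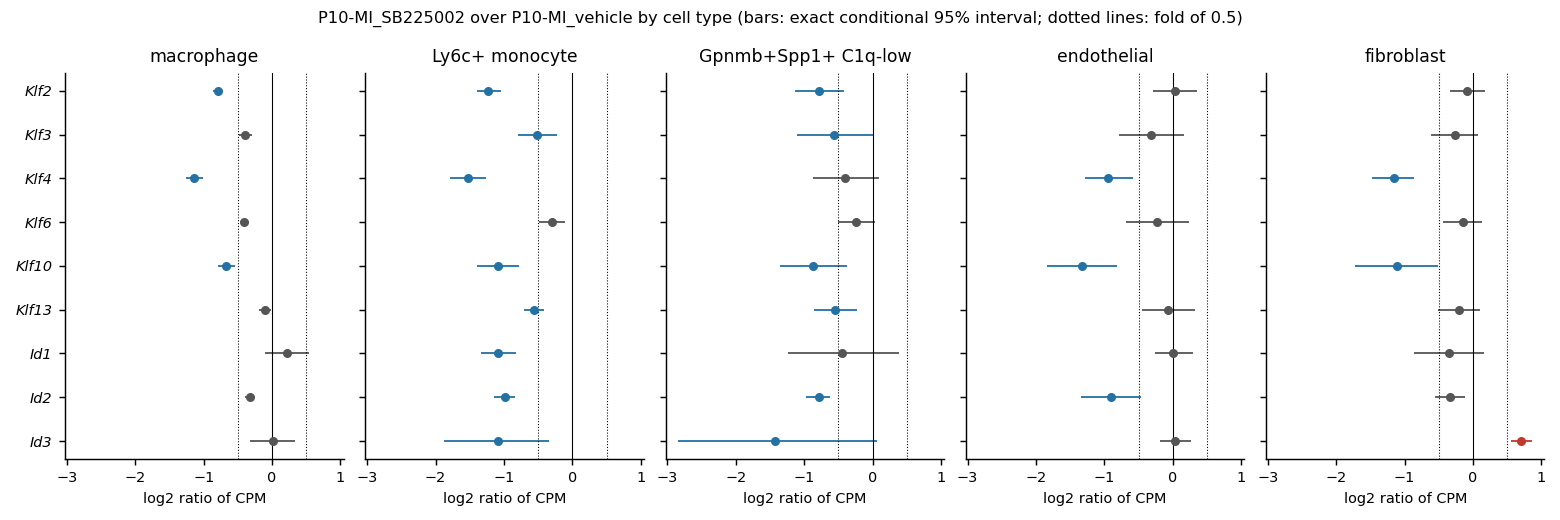
Log2 ratio of CPM of SB225002 over MI for each gene in 5 cell types, with exact conditional 95% intervals and dotted lines at the fold of 0.5 (blue, lower past the fold; red, higher; grey, neither). Klf4 and Klf10 are left of the line in macrophages, Ly6c+ monocytes, endothelial cells and fibroblasts, Klf2 sits at 0.03 in endothelial cells, and Id3 in fibroblasts is the red point, at 0.71.

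The smaller types had fewer counts. In Ly6c-low monocytes 5 of the 9 were lower past the fold and 0 higher (15.3% and 6.40% of 203 genes), with intervals off 0 for Klf4 (744 and 351 CPM, -1.08) and Klf10 (329 and 128 CPM, -1.37, 27 and 8 UMIs). Only 2 of the 9 reached the 100 UMIs of those 203 genes, Klf2 (-0.25) and Klf13 (0.27), and both were within the fold. The count and the share are thus from unlike sets. In the C1q-low Gpnmb+Spp1+ cells 6 were lower and 0 higher (8.74% and 7.74% of 4017 genes). Of these, 4 had an interval off 0, and Klf10 was at 91.7 and 50.3 CPM (-0.87, -1.35 to -0.37), Klf2 at 171 and 99.6 CPM (-0.78, -1.13 to -0.42) and Klf13 at 205 and 140 CPM (-0.55, -0.86 to -0.23). The fourth was Id2. Id3 was also among the 6 (-1.43) but below the 100 UMIs of the genes tested, which 7 of the 9 reached. Macrophages with monocyte markers had 4 lower and 0 higher, against 8.08% and 9.62% of 5060 genes. They were Klf10 at 143 and 64.0 CPM (-1.16, -1.48 to -0.84), Klf4 at 158 and 71.1 CPM (-1.15, -1.45 to -0.84), Klf2 at 315 and 154 CPM (-1.03, -1.24 to -0.82) and Id1 at 77.7 and 54.6 CPM (-0.51, -0.90 to -0.12). In neutrophils Klf4 was at 34.4 and 11.9 CPM, from 34 and 10 UMIs, and Id3 at 6.08 and 20.2 CPM, from 6 and 17 UMIs, which are too few to rank.

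Within the macrophages, the makeup of the MI and SB225002 libraries differed: cells with Lyve1 and Folr2 markers were 692 of 2295 macrophages of the MI library (30.2%) and 439 of 2921 of the SB225002 library, while cells with Gpnmb and Spp1 markers were 6.67% and 17.4%. The first had high Klf2 and Klf4 (343 and 133 CPM in the MI library) and the second low (108 and 40.5 CPM). With the subsets weighted to the makeup of the MI library, the macrophage log2 ratio was -0.56 for Klf2, -1.03 for Klf4, -0.66 for Klf10 and -0.54 for Id2, so Klf2 was nearer 0 than its unweighted -0.79 and Id2 farther from it than -0.33.

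In the Lyve1+Folr2+ macrophages Klf4 was at 133 and 64.2 CPM (-1.05, -1.30 to -0.80) and Klf2 at 343 and 274 CPM (-0.33, -0.45 to -0.20). Of the 9 genes 3 were lower there (Klf3, Klf4 and Klf10) and 2 higher (Id1 and Id3, from 26 UMIs or fewer a library), against 7.59% and 7.73% of genes tested. Id1 and Id3 were below the 100 UMIs that the genes tested had. The Arg1+ macrophages, 36 and 162 cells, had the largest Klf2 ratio in size among the subsets, at 673 and 186 CPM (-1.85, -2.11 to -1.60). Klf4 was at 232 and 66.9 CPM in them (-1.79, -2.23 to -1.36) and Id2 at 637 and 286 CPM (-1.16, -1.39 to -0.92). In those cells 4 of the 9 genes were lower past the fold and 1 higher, against 9.90% and 17.6% of 2697 genes. The fourth lower gene was Id1, from 17 and 22 UMIs, and the higher one Id3, from 2 and 14, both below the 100 UMIs of the genes tested. The Gpnmb+Spp1+ macrophages held Klf4 at 40.5 and 39.0 CPM (-0.05, -0.49 to 0.40), whereas Id2 there was at 422 and 243 CPM (-0.79, -0.94 to -0.65). They had 2 of the 9 lower and 0 higher (6.63% and 6.76% of genes tested), and 7 of the 9 reached the 100 UMIs of those genes. Macrophages of no subset, the largest group of cells, had 6 of the 9 lower and 0 higher (3.93% and 4.71% of 8768 genes), with Klf2 at 244 and 144 CPM (-0.76, -0.88 to -0.63) and Klf4 at 83.4 and 37.5 CPM (-1.15, -1.39 to -0.91). Dividing macrophages, which are defined by cell-cycle markers, held Klf4 at 56.6, 52.0 and 31.4 CPM (-0.73, -1.08 to -0.38) and Klf10 at 80.4, 85.5 and 53.6 CPM (-0.67, -0.94 to -0.41), so both were also lowest in the SB225002 library there.

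**Figure D4:**
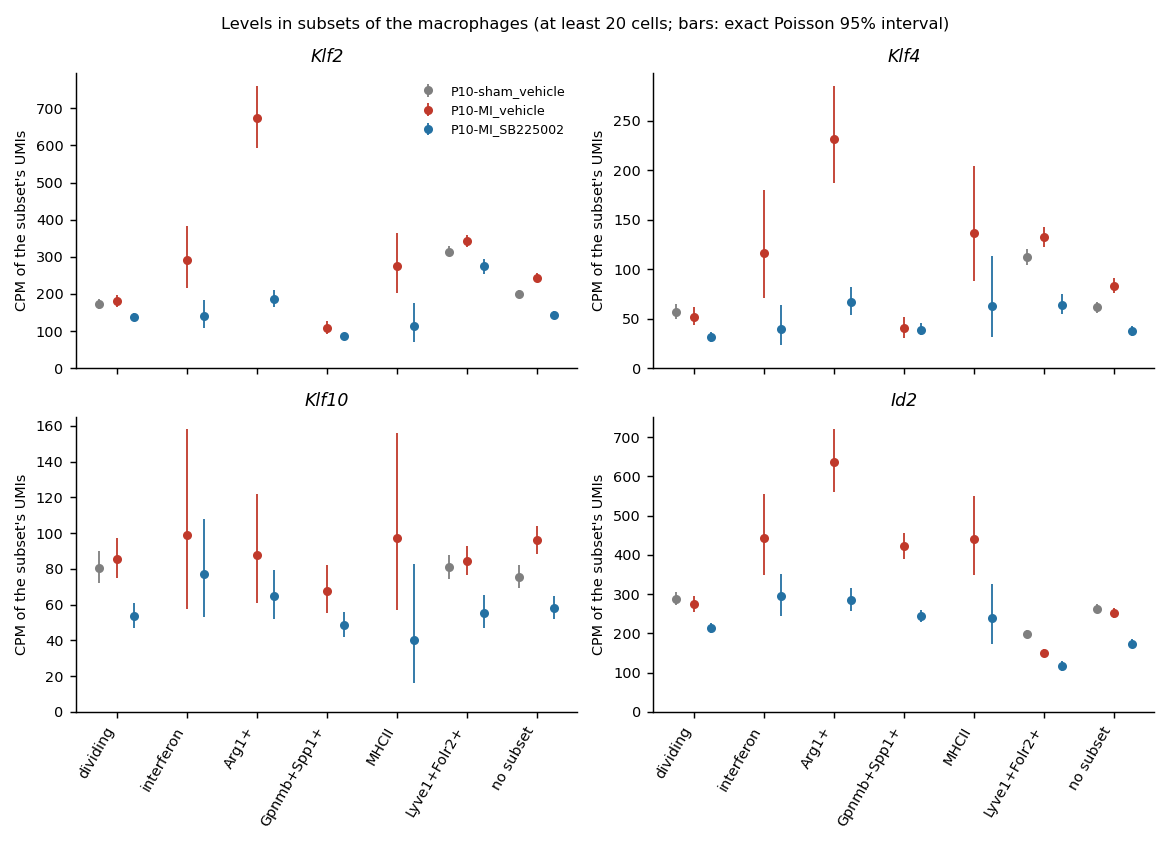
Levels (CPM of the UMIs of a subset, linear axes from 0) of Klf2, Klf4, Klf10 and Id2 in macrophage subsets with at least 20 cells, by library, with exact Poisson 95% intervals. Klf2 differs most between the MI and SB225002 libraries in Arg1+ macrophages (673 and 186 CPM), and Klf4 is alike in Gpnmb+Spp1+ macrophages (40.5 and 39.0 CPM).

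Genes of the same pathways were counted beside the 9, on lists chosen with earlier results known. Of 8 other Kruppel-like and SP factors with at least 100 UMIs in macrophages, 1 was lower past the fold and 0 higher: Klf9 at 18.4 and 10.1 CPM (-0.87, -1.14 to -0.60). Of 7 genes of the ERK5 and MEF2 route, 1 was lower, the transcription factor Mef2c at 523 and 343 CPM (-0.61, -0.66 to -0.56), while the ERK5 gene Mapk7 had 0.29. Of 3 Id partners 1 was lower, Tcf4 at 379 and 261 CPM (-0.54, -0.60 to -0.49), with Tcf12 at -0.43. Of 6 genes known as targets of Klf2 or Klf4, 1 was lower, Txnip at 610 and 430 CPM, and 1 higher, the integrin gene Itgb7 at 4.0 and 8.0 CPM.

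On the lists for the BMP and TGF-beta pathway in macrophages, 2 of 3 listed ligands, 1 of 8 receptors and 0 of 5 SMADs were lower past the fold. The listed ligands were Gdf15 at 29.1 and 13.5 CPM (-1.11) and Bmp2 at 9.22 and 5.57 CPM (-0.73). The third, Tgfb1, had the highest level, at 189 and 211 CPM (0.16, 0.09 to 0.23). Whether Gdf15 acts through the receptors and SMADs counted here was not tested. The receptor was Acvr2a at 22.9 and 13.7 CPM (-0.75), and the SMADs ranged from -0.23 to -0.01. The feedback inhibitor Bambi, at 2.34 and 4.92 CPM from 38 and 91 UMIs, was the only one of 7 past the fold (1.07). In endothelial cells Smad1 stood at 117 and 182 CPM (0.64, 0.07 to 1.25) and the inhibitor Smad7 at 310 and 208 CPM (-0.58, -0.97 to -0.18), beside Id1 and Id3 within the fold. In fibroblasts, where Id3 was higher, the ligand Tgfb1 was at 61.8 and 30.2 CPM (-1.03), the receptor Tgfbr2 at 170 and 111 CPM (-0.61), Smad3 at 80.4 and 49.8 CPM (-0.69) and Tcf4 at 979 and 597 CPM (-0.71). Those were 1 of 5 ligands, 1 of 7 receptors, 1 of 4 SMADs and 1 of 3 Id partners, each with 0 higher, and 0 of 6 feedback inhibitors were past the fold. Of 5 other Kruppel-like and SP factors in fibroblasts 2 were lower, Klf9 at 163 and 96.0 CPM (-0.76) and Klf12 at 73.7 and 47.1 CPM (-0.64). In neutrophils Acvrl1, the only listed receptor with at least 100 UMIs there, was at 52.7 and 99.7 CPM (0.92). Among all genes of neutrophils, 18.8% of 1822 were higher past the fold. In the C1q-low Gpnmb+Spp1+ cells Gdf15 was at 52.9 and 32.8 CPM (-0.69).

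Immediate-early genes had medians below 0 in all types compared but neutrophils. In macrophages 13 of 23 were lower past the fold and 1 higher (median -0.56), among them Fosb at 128 and 41.1 CPM (-1.63), Egr1 at 271 and 122 CPM (-1.16) and Fos at 909 and 441 CPM (-1.04). Of those counted, 15 of 18 were lower in Ly6c+ monocytes (median -0.83), 10 of 13 in endothelial cells (-0.85) and 10 of 15 in fibroblasts (-0.69). In macrophages with monocyte markers 11 of 17 were lower (median -0.60), in Ly6c-low monocytes 4 of 4 (-1.0), in the C1q-low Gpnmb+Spp1+ cells 4 of 16 (-0.42) and in B cells 1 of 5 (-0.18), each with 0 higher. Neutrophils had 1 of 14 lower and 3 higher, against 5.05% and 18.8% of 1822 genes. Their median was 0.16 beside 0.18 for all genes there. Of 9 heat shock genes in macrophages 3 were lower, with Hspa1b at 9.96 and 1.95 CPM (-2.35) and Hsp90aa1 at 0.25. Their part in the levels of the 9 genes, and that of the lower mitochondrial share and depth of the SB225002 library, was not tested.

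**Figure D5:**
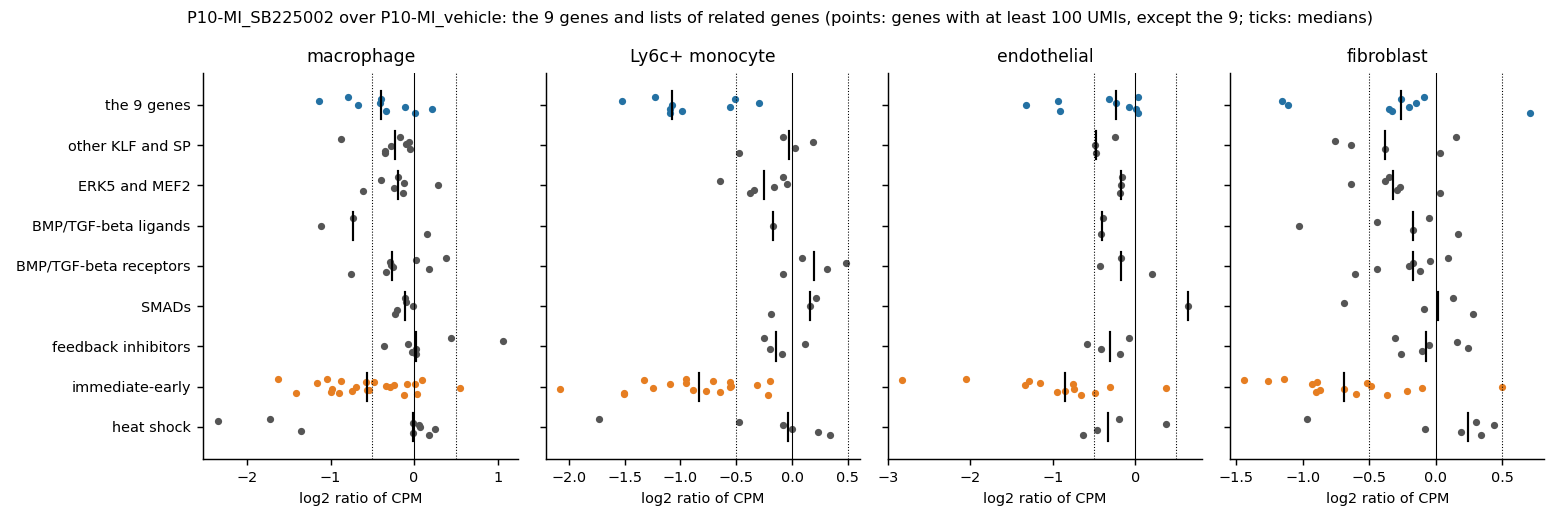
Log2 ratio of CPM of SB225002 over MI for the 9 genes (blue) and for related genes with at least 100 UMIs (immediate-early genes orange, other lists grey) in 4 cell types. Vertical ticks are medians and dotted lines mark the fold of 0.5. The immediate-early median is -0.56, -0.83, -0.85 and -0.69 in macrophages, Ly6c+ monocytes, endothelial cells and fibroblasts, and the median of the 9 genes -0.39, -1.08, -0.23 and -0.26.

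The comparison of the MI library with the sham library asks how cells differ with MI. It shares the MI library with the comparison above, so a value that is high there enters both. In macrophages no gene of the 9 was past the fold (2.80% of 10895 genes were lower and 4.32% higher). Klf13 was at 119 and 144 CPM in the sham and MI libraries (0.27, 0.19 to 0.36) and Klf4 at 78.9 and 93.9 CPM (0.25, 0.15 to 0.36). In the Lyve1+Folr2+ macrophages Id2 was at 197 and 150 CPM (-0.39, -0.52 to -0.26). Immediate-early genes had 1 of 22 lower (Myc, -0.52) and 1 higher (Nr4a1, 0.67), and the feedback inhibitor Tgif1 was at 21.5 and 30.8 CPM (0.52).

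Macrophages with monocyte markers had 5 of the 9 higher and 0 lower (13.5% and 4.72% of 2713 genes), 4 of them with an interval off 0, from 27 sham cells: Klf2 was at 158 and 315 CPM (1.0, 0.61 to 1.42), Klf4 at 84.1 and 158 CPM (0.91), Klf6 at 163 and 246 CPM (0.59) and Id2 at 244 and 360 CPM (0.56). The fifth was Id3, from 1 and 10 UMIs. Immediate-early genes were higher beside them in 6 of 15 and lower in 0 (median 0.41), with Nr4a1 at 0.94, and their part in the result was not tested. The feedback inhibitor Ski was at 68.3 and 108 CPM (0.67, 0.06 to 1.33). No other gene counted there from the BMP, SMAD or KLF lists was past the fold. These cells carry markers of 2 types and had median UMIs of 12629, 10890 and 10611 in the 3 libraries, against 8668, 6274 and 5575 in macrophages, and the share of doublets among them was not tested. In endothelial cells, 38 in the sham and 63 in the MI library, Klf10 was at 118 and 227 CPM (0.94, 0.26 to 1.67) and Id2 at 164 and 280 CPM (0.78, 0.18 to 1.39), while Id3 was at 1191 and 806 CPM (-0.56, -0.83 to -0.30). These were 2 higher and 1 lower of 9, against 8.56% of 759 genes in each direction. Klf10, from 26 and 60 UMIs, was below the 100 UMIs that those genes had. Immediate-early genes in those cells were higher in 3 of 12 and lower in 0 (median 0.31), and 1 of 14 was lower and 1 higher in fibroblasts (-0.13). In fibroblasts 2 of the 9 were lower and 1 higher. Klf4 was at 362 and 252 CPM (-0.52, -0.78 to -0.26), Id2 at 472 and 301 CPM (-0.65, -0.87 to -0.42) and Id3 at 312 and 473 CPM (0.60, 0.36 to 0.85), with 16.1% of 3442 genes lower and 8.83% higher. In those fibroblasts 1 of 3 ligands was higher, Tgfb3 at 30.6 and 121 CPM (1.99, 1.26 to 2.80), and 1 lower, Tgfb2 at 148 and 98.2 CPM (-0.59). Of 7 receptors 1 was lower, Acvrl1 at 150 and 82.6 CPM (-0.86), and of 3 SMADs 2 were lower, Smad3 at 144 and 80.4 CPM (-0.84) and Smad4 at 86.5 and 58.8 CPM (-0.56). Of 4 feedback inhibitors 1 was higher, Smad7 at 36.0 and 72.9 CPM (1.02). Of 5 other Kruppel-like and SP factors 3 were lower, Sp3 (-0.84), Klf12 (-0.60) and Klf7 (-0.55), and 0 higher.

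Genes with the most similar pattern were found among 7018 genes by Pearson r of log2(CPM + 10) over 22 sums of a type and library, which share depth and composition, so no p is given. Klf6 was most like Dusp1 (0.90), a phosphatase of the immediate-early list, and Rhob (0.79). Klf2 was most like Ppp1r12a (0.89), Klf4 like Ext1 (0.87) and Bag3 (0.87), Klf10 like Api5 (0.84), Klf3 like Rsrc2 (0.94) and Klf13 like Rara (0.90). Id3 was most like Ehd2 (0.97), Sptbn1 (0.96) and Nedd4 (0.96), Id1 like Ndel1 (0.88) and Id2 like Ifrd1 (0.79), with the heat shock gene Hspa1a (0.77) in its top 3. Among themselves, Klf2 and Klf3 had r = 0.75 and Klf2 and Klf4 0.17.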

How the data were processed

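Whole-number UMI counts, not normalized, were deposited by the authors as 1 table of genes by barcodes for each of the 3 DG1000 libraries, and the barcode with the fewest UMIs held 500. Seurat 4.1.0 and mm10 are named in the submitters' processing notes; the aligner, counter and annotation are not given in the sources used here. No column of another sample was used. The 9 genes, the lists of related genes and the comparisons were chosen with earlier results of these data known.

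Cells were kept at the limits given in the report and gated in Python 3.11.15 (numpy 2.4.6, scipy 1.17.1, pandas 2.3.3) as a type where at least 3 of its markers (2 for Arg1+) were detected and their summed share reached a cut-off set on marker sums alone (50 per 10000 UMIs for macrophages, 15 for endothelial cells, 50 for fibroblasts and 15 for Ly6c+ monocytes). Cells with markers of more than 1 lineage were set aside as mixed, in place of a doublet caller, of which the study's methods name none beyond the exclusion of doublets in the sort. Macrophages with monocyte markers were kept as a type of their own. Cells that passed the neutrophil and Ly6c+ monocyte gates alone were called neutrophils, because those marker lists share genes. The neutrophils held median Ly6c+ monocyte marker sums of 30.6, 31.7 and 28.9 per 10000 UMIs in the sham, MI and SB225002 libraries. Counts were summed per type and library; CPM carry exact Poisson intervals, shares exact binomial (Clopper-Pearson) intervals and ratios exact conditional intervals. The ratio was tested on simulated data. Named genes are the 9, at most 4 per list by size of log2 ratio in macrophages, any BMP, SMAD or KLF list gene past the fold in a cell type, and the 3 genes most similar in pattern. edgeR 4.0.16 and DESeq2 1.42.0 (R 4.3.3) gave scaling factors for alternatives only. The other alternatives were thinning to 1000 UMIs, the mean of log-normalized values, marker counts of 2 and 4, a mitochondrial limit of 5%, no dividing cells, clusters (scanpy 1.11.5), weighted subsets and a fold of 1.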

Additional observations from a re-analysis of the deposited data

Results flagged for a closer look

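The effect of a comparison went opposite ways in different cell types for several genes, and with 1 library per group these differences were not tested. Between the MI and sham libraries, Klf4 had a log2 ratio of 0.91 in macrophages with monocyte markers and -0.52 in fibroblasts. Id2 had 0.56 in macrophages with monocyte markers, 0.78 in endothelial cells and -0.65 in fibroblasts. Id3 had -0.56 in endothelial cells and 0.60 in fibroblasts.

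Between the SB225002 and MI libraries, Id3 had -1.09 in Ly6c+ monocytes, 1.73 in neutrophils and 0.71 in fibroblasts, the first from 43 and 24 UMIs in the MI and SB225002 libraries and the second from 6 and 17. The first was 0.44 on thinned cells, and the second was -0.17 with at least 2 markers and -0.22 on clusters. Among macrophages, Id1 had -1.45 in the Arg1+ subset, 1.37 in the Lyve1+Folr2+ subset and -0.63 in cells of no subset. Id3 had 1.29 in the Lyve1+Folr2+ subset and -0.75 in cells of no subset. The Id1 and Id3 levels of macrophages are low, and the part of RNA from other cells in them was not tested. The Id1 and Id3 values of the Lyve1+Folr2+ subset rest on 19 and 26 UMIs and on 20 and 26 UMIs.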

How the results depend on the processing

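The alternatives were run on cell types and not on the macrophage subsets, whose ratios have no such check. Of 39 ratios of the 9 genes in cell types that were past the fold with an interval off 0, 37 kept their sign under every alternative that gave a value and 15 also stayed past the fold under all of them. The difference of mean log-normalized values is among the alternatives. It is pulled toward 0 for genes of low level, so it cannot decide whether their ratios stay past the fold. The count of genes past the fold in macrophages of SB225002 over MI, 3, became 5 on cells thinned to 1000 UMIs (4 lower, 1 higher), 0 with mean log-normalized values and 1 at a fold of 1. For MI over sham in macrophages, 0 became 2 on thinned cells and 1 on clusters. In Ly6c+ monocytes, 8 became 4 with mean log-normalized values and 5 at a fold of 1. In endothelial cells, 3 became 1 at a fold of 1, and in fibroblasts 3 became 1 with mean log-normalized values. The type with the highest level held for 3 of 9 genes at a mitochondrial share under 5% and for 2 on clusters, where Ly6c-low monocytes fell under 20 cells or had no cluster of their own. Id3 reversed in Ly6c+ monocytes on thinned cells (0.44) and in neutrophils with at least 2 markers (-0.17) and on clusters (-0.22). The thinned value rests on few Id3 UMIs. Scaling factors shifted all ratios by at most 0.09 in size except in neutrophils (-0.18). Leaving out a replicate was not possible with 1 library per group. No paired analysis was possible because each group had 1 library.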
